A study of Mus musculus with 6 samples.

Results

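The lysosome and autophagy genes of DN3 thymocytes were described across wild-type and mutant libraries: 43 genes picked by symbol from the 21135 genes listed. All 43 had a row and passed the minimum mean of 10 normalised reads that 17815 genes passed. They comprised 23 lysosomal genes, namely 12 hydrolases, 2 lumenal cofactors, 4 membrane proteins and 5 subunits of the V-ATPase, together with 17 autophagy genes and the 3 MiT/TFE transcription factors. DN3 cells are immature CD4-negative, CD8-negative T-cell precursors in the thymus that carry CD25 and have little CD44. The libraries came from C57BL/6 mice: 3 had a wild-type NMe and 3 were homozygous for mutations of GATA sites 1 and 2 in NMe, an enhancer of Myc that Notch binds in T-lineage cells. The labels name no transgene, Cre or treatment, give no age or sex, and do not state that libraries came from separate animals, so the p-values reflect only how much these libraries vary.

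Lysosomes are acidic compartments in which hydrolases digest proteins, glycans, lipids and glycogen, and the V-ATPase pumps the protons that keep them acidic. Autophagy encloses cytoplasm in a membrane, marks that membrane with lipid-linked proteins of the ATG8 family, and delivers it to lysosomes. TFEB, TFE3 and MITF bind E-box-like elements with the core CACGTG near many genes of both systems, and MYC with its partner MAX binds the same core.

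Each library held 38.6 to 51.3 M recovered reads. Myc itself, the target of the mutated enhancer, had 18041, 19223 and 20196 normalised reads in wild-type libraries and 5562, 4612 and 6165 in mutant libraries, a log2 change of -1.82 ± 0.12 (SE, adjusted p = 4.22e-05). This checks the labels only indirectly, because the mutated sites lie outside the gene. The DN3 marker Il2ra, which encodes CD25, was at 55810.1 reads or more in every library, and Cd4 and Cd8a were at 85.4 or fewer. All adjusted p-values are from limma over 17815 genes, and levels are mean ± SD over 3 libraries per genotype. The libraries are of bulk RNA, so fewer cells of a type and less RNA per cell cannot be told apart.

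Of the 43 genes, 9 passed the test between genotypes (20.9%), 5 higher and 4 lower in the mutant, beside 18.8% of all tested genes (7.94% higher and 10.9% lower). The genotypes did not overlap for 16 of the 43 (37.2%, 10 higher and 6 lower), beside 38.3% of all tested genes (18.0% higher and 20.3% lower). On the recovered reads, edgeR called 10 of the 43, beside 18.4% of all genes, and DESeq2 called 11, beside 24.4%. These shares were close to those of the whole table, so the counts do not set the list apart. The median log2 change was 0.10 over the 43 genes and 0.03 over all genes tested. By system, 7 of the 23 lysosomal genes passed (30.4%, 3 higher and 4 lower) and 2 of the 17 autophagy genes (11.8%), both higher. The 4 that fell were all hydrolases, led by Ctsl and Gusb, while the 5 that rose were membrane proteins, a V-ATPase subunit, an ATG8 gene and a cargo receptor. Hydrolases did not share 1 direction: of the 12, 6 log2 changes were above 0 and 6 below. In a further list of 35 tested hydrolases and lumenal proteins, 4 passed as higher and 2 as lower, with 24 changes above 0 and 11 below.

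**Figure D1:**
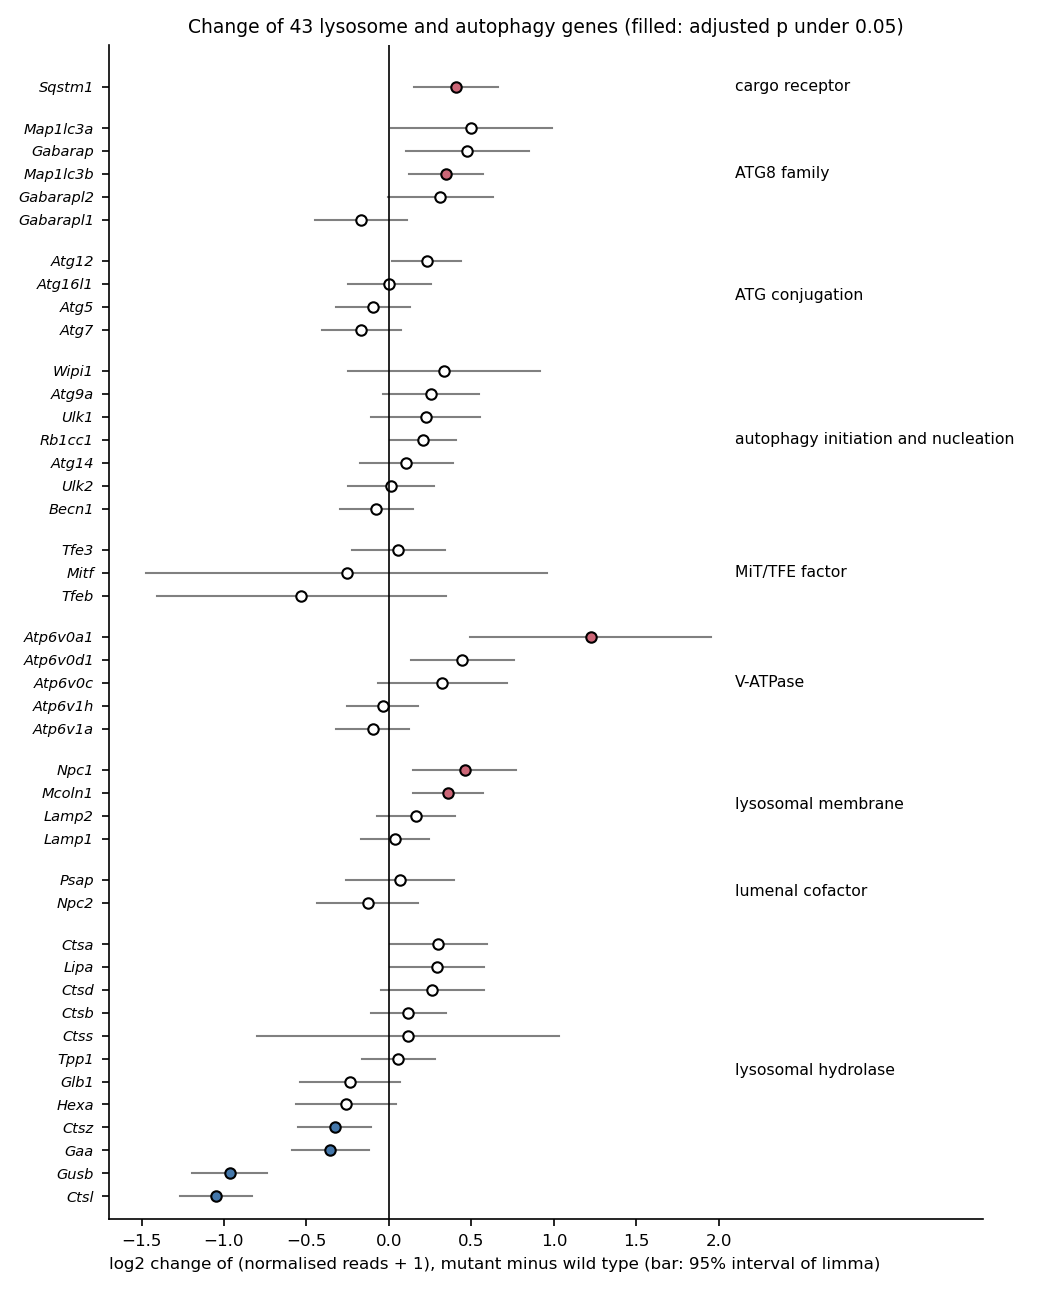
Log2 change, mutant minus wild type on the log2(normalised reads + 1) scale, of each of the 43 genes ordered by role, with the 95% interval from limma (3 libraries per genotype). Filled points passed the test at an adjusted p of 0.05; Ctsl and Gusb lie farthest below 0 and Atp6v0a1 farthest above.

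The 3 MiT/TFE factors, which drive many lysosomal and autophagy genes, gave 0 calls by limma, edgeR and DESeq2, and 0 at an unadjusted p under 0.05. Tfe3 had the highest level of the 3 per kilobase of exon, 106 normalised reads over the 6 libraries, against 5.47 for Tfeb and 3.98 for Mitf. Tfe3 averaged 967 ± 82.2 reads in wild-type libraries and 1005 ± 40.7 in mutant libraries (log2 change 0.06 ± 0.13, adjusted p = 0.786). Tfeb had 35.0, 32.5 and 41.8 reads in wild-type libraries and 27.4, 17.2 and 32.0 in mutant libraries. The Tfeb groups did not overlap, with every mutant library below every wild-type library, but the log2 change of -0.53 ± 0.39 did not pass (95% interval -1.41 to 0.34, adjusted p = 0.377). It was -0.28 without mutant replicate 2. Mitf, at 12.1 to 43.5 reads, overlapped between genotypes (adjusted p = 0.78), and counts this low leave wide intervals.

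The promoters of the genes were searched for the E-box core in RefSeq windows of 300 bases, from 250 before to 50 after an annotated start on GRCm38.p6, which matched 35 of the 43 genes by symbol. The palindrome CACGTG, which reads the same on both strands, was present for 12 of these 35 (34.3%), beside 8.09% of all 27025 genes with a window. The longer palindrome TCACGTGA, which contains the core, was present for 5 of 35 (14.3%), beside 1.12%. The 10-base palindrome of the CLEAR element, which contains both, was present for 0 of 35, beside 0.370%. These shares of all genes cover every gene with a window, not only genes tested here, whereas all 35 passed the minimum mean. No share was computed for tested genes alone. Among the genes that passed the test, Ctsl and Gaa, which fell, and Mcoln1, which rose, had the core, whereas Gusb, Ctsz, Atp6v0a1, Map1lc3b and Sqstm1 did not have it in these windows, and Npc1 was not matched to a window. For 6 of the 12 (Atg5, Atp6v0d1, Gaa, Glb1, Lamp1 and Mcoln1) the RefSeq start lay within 100 bases of the GENCODE start of the gene. A window this near was available for 25 genes, and no share of all genes was computed for such windows. In windows with the core, the RefSeq start lay 27999 bases inside the gene for Atg7, 2215 for Atg14 and 900 for Ctsa. The RefSeq starts used for Ctsl and Atp6v0a1 lay 370 and 946 bases inside the GENCODE gene, so these windows do not cover its start, and the Ctsl window is not shown. A match is a description of the letters and shows no binding.

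Upstream stretches are printed from RefSeq for 4 genes, 5′ to 3′ on the strand of the gene and ending before the annotated starts, with CACGTG in capitals. They set Lamp1, which has 4 copies and did not pass the test, beside Mcoln1, which rose, Gaa, which fell, and Gusb, which fell and has no copy. Lamp1 is at chr8:13158911-13159160 (plus strand), Mcoln1 at chr8:3500269-3500456 (plus), Gaa at chr11:119267713-119267886 (plus) and Gusb at chr5:130003050-130003299 (minus). A further Mcoln1 copy lay closer to the RefSeq start than the stretch printed.
Lamp1: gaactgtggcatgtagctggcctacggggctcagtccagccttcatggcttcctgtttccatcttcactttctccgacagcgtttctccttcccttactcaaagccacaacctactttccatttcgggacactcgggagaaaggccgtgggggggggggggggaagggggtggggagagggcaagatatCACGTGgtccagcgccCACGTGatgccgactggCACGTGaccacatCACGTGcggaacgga
Mcoln1: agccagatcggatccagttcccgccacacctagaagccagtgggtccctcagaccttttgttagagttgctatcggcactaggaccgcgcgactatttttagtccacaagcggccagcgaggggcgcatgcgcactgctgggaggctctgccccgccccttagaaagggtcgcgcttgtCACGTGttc
Gaa: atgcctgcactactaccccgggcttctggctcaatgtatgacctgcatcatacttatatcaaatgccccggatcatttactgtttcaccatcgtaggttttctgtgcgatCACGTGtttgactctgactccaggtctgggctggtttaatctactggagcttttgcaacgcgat
Gusb: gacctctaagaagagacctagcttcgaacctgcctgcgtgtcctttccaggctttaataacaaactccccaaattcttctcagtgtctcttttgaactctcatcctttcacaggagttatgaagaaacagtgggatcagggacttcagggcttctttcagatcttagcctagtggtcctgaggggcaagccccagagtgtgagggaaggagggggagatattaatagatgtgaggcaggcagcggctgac

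Of the 12 hydrolases, 4 fell and 0 rose by limma, edgeR or DESeq2, and Ctsa and Lipa were higher at an unadjusted p under 0.05. The 4 were 33.3% of a small class, beside 10.9% of all tested genes lower by limma. In either direction, the shares of all genes were 18.8% by limma, 18.4% by edgeR and 24.4% by DESeq2. Ctsl encodes cathepsin L, a cysteine endopeptidase (ENSMUSG00000021477.9, chr13:64359337-64370890). It had 8109.9, 8179.6 and 7636 normalised reads in wild-type libraries and 4032, 4001 and 3546 in mutant libraries. The groups were far apart, and the lowest wild-type library was well above the highest mutant library. Levels of 7975 ± 296 and 3859.9 ± 272 differed 2.07-fold, a log2 change of -1.05 ± 0.10 (95% interval -1.26 to -0.83, adjusted p = 0.000163). Exons of Ctsl share 1742 bases with the antisense gene model Gm47123, and the library kit does not record strand, so the reads of these 2 genes cannot be told apart there.

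Gusb encodes beta-glucuronidase, which removes glucuronic acid from glycosaminoglycans and is often used as a reference gene in quantitative PCR (ENSMUSG00000025534.17, chr5:129989011-130003049). It had 4952, 4939 and 5701 reads in wild-type libraries and 2598, 2756 and 2614 in mutant libraries. The 3 mutant libraries lay close together and far below the wild type. Gusb was 1.96-fold lower in the mutant, with a log2 change of -0.97 ± 0.10 (95% interval -1.19 to -0.74, adjusted p = 0.000349). Ctsl and Gusb were the genes of the 43 that passed the test in all 17 alternative fits, each leave-one-out fit included.

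Gaa encodes acid alpha-glucosidase, which breaks down glycogen in lysosomes (ENSMUSG00000025579.14, chr11:119267887-119285454). Its reads were 6228, 5575 and 5532 in wild-type libraries and 4448, 4935 and 4173 in mutant libraries, so the groups were apart by less than their spread within a genotype. The log2 change of -0.36 ± 0.10 corresponded to a 1.28-fold lower mean (adjusted p = 0.0395). The call was lost with equal library totals (adjusted p = 0.068) and without any 1 library other than mutant replicate 2 (0.0637 to 0.127).

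Ctsz encodes cathepsin Z, a carboxypeptidase (ENSMUSG00000016256.10, chr2:174427493-174439039). It had 4554, 4881 and 4863 reads in wild-type libraries and 4083, 3758 and 3550.5 in mutant libraries, with every mutant library below every wild-type library. The mean was 1.26-fold lower, a log2 change of -0.33 ± 0.10 (adjusted p = 0.0434). The call was lost with equal library totals (0.0635), with no filter on low values (0.0508) and without any 1 library other than mutant replicate 1 (0.0728 to 0.146).

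The other 8 hydrolases did not pass, and all 8 overlapped between genotypes. Ctsd, the aspartic protease cathepsin D, averaged 9274 ± 1102 reads in wild-type libraries and 11188 ± 1933 in mutant libraries (log2 change 0.26 ± 0.14, adjusted p = 0.219). Ctsb, the cysteine protease cathepsin B, was at 13875 ± 405 and 15120.2 ± 1666 (adjusted p = 0.449). Ctsa, a carboxypeptidase that also protects beta-galactosidase, was at 9151 ± 1045 and 11300.0 ± 1713 (log2 change 0.30 ± 0.13, adjusted p = 0.144). Leaving out mutant replicate 3, the lowest mutant library for Ctsa, brought it to an adjusted p of 0.0398. The mean of Ctsd, Ctsb and Ctsa was thus above that of the wild type, unlike that of Ctsl, although none of the 3 passed.

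Hexa, the alpha subunit of beta-hexosaminidase A, had a log2 change of -0.26 ± 0.14 (adjusted p = 0.211). Glb1, lysosomal beta-galactosidase, had -0.23 ± 0.14 (adjusted p = 0.259). Lipa, the acid lipase that splits cholesteryl esters and triglycerides, had 0.29 ± 0.13 (adjusted p = 0.142), and Tpp1, a tripeptidyl peptidase, had 0.06 ± 0.10 (adjusted p = 0.73). Ctss, the cathepsin of antigen-presenting cells that trims the invariant chain, had 46.2 to 122 reads over the 6 libraries and the lowest level per kilobase of exon among the hydrolases (50.3). Neither lumenal cofactor passed by limma, edgeR or DESeq2, and 0 of the 2 had an unadjusted p under 0.05. Psap, the precursor of the saposins that help hydrolases reach sphingolipids, averaged 15847 ± 2601 and 16588 ± 2596 reads (adjusted p = 0.783). Npc2, which hands cholesterol to Npc1, had 5886, 5685 and 4613 reads in wild-type libraries and 5578, 5124 and 4126 in mutant libraries, overlapping between genotypes (log2 change -0.13 ± 0.14, adjusted p = 0.556).

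Of the 4 membrane proteins, 2 rose (50% of few genes, beside 7.94% of all tested genes higher). Npc1 exports cholesterol from the lysosome (ENSMUSG00000024413.13, chr18:12189692-12236400). It had 2944, 3110.1 and 2319 reads in wild-type libraries and 4059, 4112 and 3302 in mutant libraries, and replicate 3 was the lowest of each genotype. The 1.37-fold higher mean was a log2 change of 0.46 ± 0.14 (95% interval 0.15 to 0.77, adjusted p = 0.0454). The call was lost without any 1 library other than mutant replicate 3 (0.0593 to 0.136). Exons of Npc1 share 511 bases with Rmc1, itself at a mean of 5007 reads.

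Mcoln1 encodes mucolipin 1, the calcium channel of the lysosomal membrane (ENSMUSG00000004567.16, chr8:3500457-3515232). It had 4166, 4034 and 4183 reads in wild-type libraries and 5124, 5681 and 5103 in mutant libraries. The wild-type libraries were nearly equal and all 3 mutant libraries stood above them. The mean was 1.28-fold higher, a log2 change of 0.36 ± 0.09 (adjusted p = 0.0257), and the call was lost without any 1 wild-type library (0.0556 to 0.103) or without mutant replicate 2 (0.0999).

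The heavily glycosylated proteins that line the lysosomal membrane did not pass. Lamp1 averaged 8211 ± 28.8 reads in wild-type libraries and 8439 ± 631 in mutant libraries, a log2 change of 0.04 ± 0.09 with a 95% interval of -0.17 to 0.24 (adjusted p = 0.815). Lamp2, whose isoform LAMP2A imports substrates of chaperone-mediated autophagy, averaged 4539.8 ± 112 and 5107 ± 529 (log2 change 0.16 ± 0.11, adjusted p = 0.305). Gene-level reads do not separate the Lamp2 isoforms.

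Of the 5 V-ATPase subunits, 1 rose (20% of few genes, beside 7.94% of all tested genes higher). Atp6v0a1 encodes an isoform of the a subunit of the membrane domain (ENSMUSG00000019302.16, chr11:101009452-101063719). It had 253, 108 and 104 reads in wild-type libraries and 285, 399 and 323 in mutant libraries, with wild-type replicate 1 close to the lowest mutant library. The mean rose 2.16-fold, a log2 change of 1.22 ± 0.33 (95% interval 0.49 to 1.96, adjusted p = 0.0277). The call was lost without any 1 library other than wild-type replicate 1 (0.0508 to 0.0982). At 37.4 normalised reads per kilobase of exon it had the lowest level of the 5 subunits.

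Atp6v0d1, the d subunit that couples the membrane domain to the central stalk, lay at the threshold. It had 2048, 2121 and 1568 reads in wild-type libraries and 2868, 2443 and 2454 in mutant libraries, with no overlap. The log2 change of 0.45 ± 0.14 had an adjusted p of 0.0507, and it was called in 8 of the 17 alternative fits, among them edgeR (0.045) and DESeq2 (0.0186). Atp6v0c, which forms the proton-carrying ring, averaged 868 ± 162 and 1081 ± 163 reads (log2 change 0.32 ± 0.18, adjusted p = 0.228), and its change was 0.16 without wild-type replicate 3. Processed copies of Atp6v0c are listed as genes of their own, so its reads could be split. Atp6v1a, the catalytic subunit, had a log2 change of -0.10 ± 0.10 (adjusted p = 0.531), and Atp6v1h, a regulatory subunit of the cytosolic domain, -0.04 ± 0.10 (adjusted p = 0.816).

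**Figure D2:**
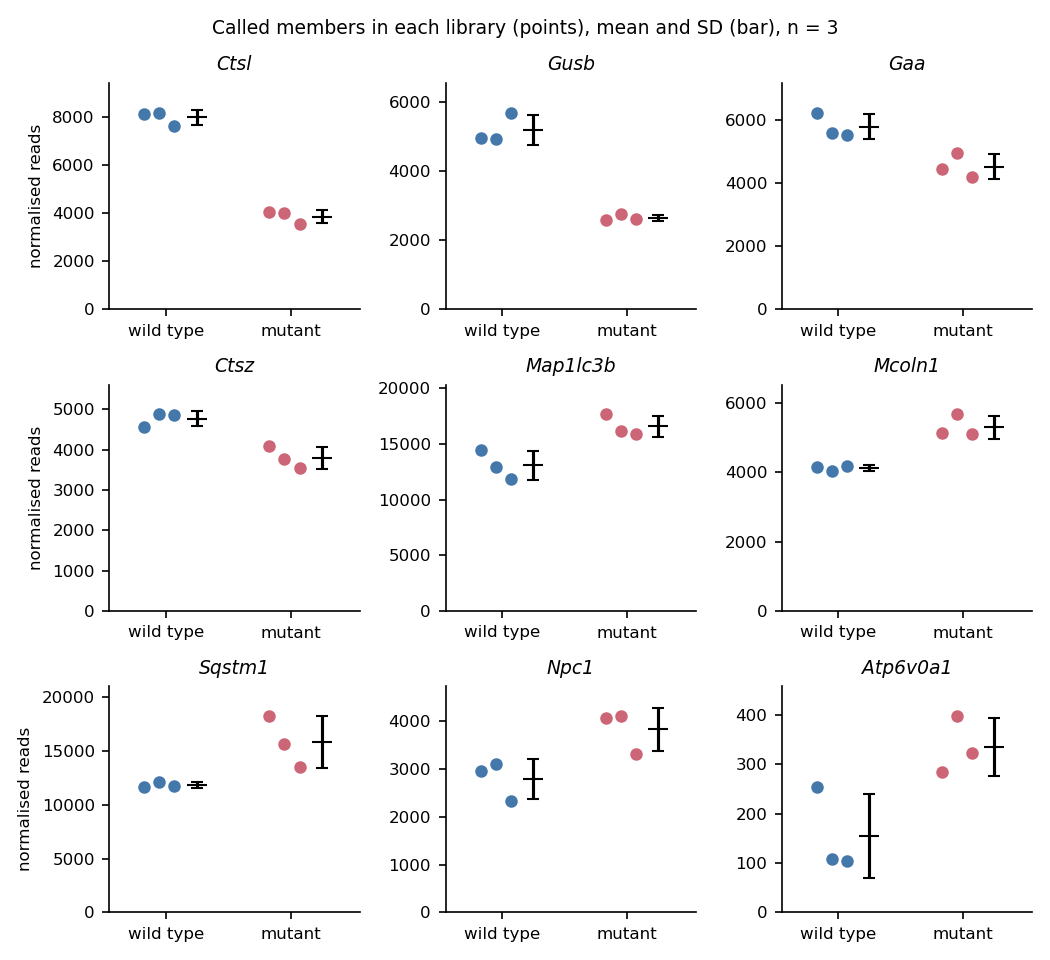
Normalised reads in each of the 6 libraries for the 9 genes that passed the test, with 3 points per genotype and the mean and SD as a bar, each axis starting at 0. Ctsl and Gusb show the widest gaps between genotypes, and for Atp6v0a1 wild-type replicate 1 lies near the mutant libraries.

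Markers of macrophages, monocytes and dendritic cells, which could bring lysosomal RNA into a sorted population, were read beside these genes. Lists of B cell, thymic epithelium, granulocyte and innate lymphoid markers are not described here. Among macrophage and monocyte markers, Adgre1, Csf1r, Itgam and Mpeg1 had at most 17.2 reads in any library. These 4 summed to 8.90 to 33.4 reads in wild-type libraries and 20.1 to 36.4 in mutant libraries. Lyz2, at 1092 to 2017 reads, did not pass (adjusted p = 0.53). Among 5 tested dendritic cell markers, 1 passed the test: H2-Ab1 averaged 836 ± 86.1 reads in the wild type against 308 ± 35.9 in the mutant (adjusted p = 0.000424). It made up most of the summed list, which was at 888 to 1244 reads in wild-type libraries and 482 to 608 in mutant libraries. Xcr1 and Zbtb46 of the same list had higher reads in every mutant library than in any wild-type library, at means of 62.9 against 105 and 39.4 against 64.5, without passing (adjusted p = 0.0986 and 0.172). Cd74 and H2-Aa of this list had lower means in the mutant, at 37.5 against 103 in the wild type and 27.7 against 60.9. Both overlapped between genotypes and did not pass (adjusted p = 0.24 and 0.406). The part of such cells in the lysosomal changes was not tested.

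The autophagy genes showed 2 calls among 17, both higher in the mutant, and 0 lower by limma, edgeR or DESeq2, with 0 lower also at an unadjusted p under 0.05. The median log2 change of the 17 was 0.22, with 13 above 0 and 4 below, beside 0.03 for all genes tested. For the 40 other autophagy genes described further below, it was 0.03, with 22 above 0 and 18 below. The summed level of the 17 members was 67711, 65992 and 62986 reads in wild-type libraries and 82609, 77261 and 72188 in mutant libraries, so that the genotypes did not overlap. The sum is carried by a few abundant genes, chiefly Sqstm1 and Map1lc3b. The 23 lysosomal genes summed to 117143 to 123800 reads in wild-type libraries and 112333 to 125293 in mutant libraries, which overlapped.

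Among the 7 genes of initiation and nucleation, 0 passed by limma, edgeR or DESeq2, and 1 had an unadjusted p under 0.05. That gene was Rb1cc1, the FIP200 scaffold of the ULK complex, with 4513, 4601 and 4748 reads in wild-type libraries and 5162, 5381 and 5444 in mutant libraries. Its groups were apart, each with a narrow spread, but the log2 change of 0.21 ± 0.09 did not pass after adjustment (0.142). Wipi1, which binds the phosphoinositide of forming autophagosomes, had the largest fitted change of the 7 at 0.33 ± 0.26, from 92.3, 91.7 and 64.9 reads in the wild type to 109.8, 110.5 and 91.6 in the mutant. These groups overlapped, the change did not pass (adjusted p = 0.405), and it was 0.17 without wild-type replicate 3.

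Ulk1, the kinase that starts autophagy, averaged 2314 ± 451 and 2663 ± 96.5 reads (adjusted p = 0.323), and its relative Ulk2 averaged 3805 ± 380 and 3836 ± 384 (adjusted p = 0.955). Becn1 and Atg14, subunits of the lipid kinase complex of nucleation, had log2 changes of -0.08 ± 0.10 (adjusted p = 0.638) and 0.10 ± 0.13 (adjusted p = 0.608). Exons of Becn1 share 3104 bases with Cntd1, whose mean was 177 reads. Atg9a, the scramblase of vesicles that seed the membrane, had no overlap between genotypes, at 1141 ± 144 and 1356 ± 51.7 reads, but did not pass (adjusted p = 0.2).

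The 4 conjugation genes, whose products attach ATG8 proteins to lipid, gave 0 calls by limma, edgeR and DESeq2, with 1 unadjusted p under 0.05. Atg12, the ubiquitin-like protein joined to Atg5, had the largest change, with 4684, 4647 and 4788 reads in wild-type libraries and 5714, 5738 and 5129 in mutant libraries. All mutant libraries stood above the wild type, at a log2 change of 0.23 ± 0.09 (95% interval 0.02 to 0.44, adjusted p = 0.118). It passed with equal library totals (0.0433). Atg7, the activating enzyme of both conjugation systems, was lower in every mutant library, at 2110.2 ± 140.3 and 1878 ± 57.8 reads, without passing (log2 change -0.17 ± 0.11, adjusted p = 0.31). Atg5 and its partner Atg16l1 had log2 changes of -0.10 ± 0.10 (adjusted p = 0.538) and 0.00 ± 0.11 (adjusted p = 0.99).

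The ATG8 family, the proteins that coat the autophagosome and hold cargo receptors, had 1 call among 5 (20% of few genes, beside 18.8% of all tested genes). Map1lc3b encodes LC3B, the usual marker of autophagosomes (ENSMUSG00000031812.16, chr8:121590361-121598760). It had 14468, 12944 and 11896 reads in wild-type libraries and 17698, 16214 and 15913 in mutant libraries. The groups did not overlap, although the gap between them was smaller than the spread within the wild type. The mean was 1.27-fold higher, a log2 change of 0.35 ± 0.10 (95% interval 0.12 to 0.57, adjusted p = 0.0379), and the call was lost without any 1 library other than wild-type replicate 1 (0.0522 to 0.123).

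Gabarap had 5123, 5162 and 3826 reads in wild-type libraries and 8131, 6226 and 5367 in mutant libraries. Its groups did not overlap and its log2 change was 0.47 ± 0.17, but it missed the threshold (adjusted p = 0.0748). It passed with equal library totals (0.0463), by DESeq2 (0.0241) and without mutant replicate 3 (0.0385), and its change was 0.31 without mutant replicate 1. Gabarapl2 overlapped, with 2612, 2897 and 2641 reads in wild-type libraries and 4019, 3495 and 2724 in mutant libraries (adjusted p = 0.156), and passed without mutant replicate 3 (0.0321), with a change of 0.19 without mutant replicate 1. Map1lc3a also overlapped, at a log2 change of 0.50 ± 0.22 (adjusted p = 0.141), which was 0.26 without wild-type replicate 3. Gabarapl1 differed in sign, at -0.17 ± 0.13 (adjusted p = 0.374). The 5 genes together had 24826, 23383 and 20363 reads in wild-type libraries and 32468, 28232 and 26580 in mutant libraries, with no overlap. This sum is carried chiefly by Map1lc3b, the gene of the 5 that passed. Map1lc3b averaged 13103 of the mean sum of 22857.5 reads in wild-type libraries and 16608 of 29093.5 in mutant libraries.

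Sqstm1 encodes p62, a receptor that carries ubiquitinated cargo to LC3 and is itself degraded by autophagy (ENSMUSG00000015837.15, chr11:50199366-50210827). It had 11674, 12127 and 11773 reads in wild-type libraries and 18315, 15676 and 13539.9 in mutant libraries. The wild-type libraries lay within a narrow range, and the mutant libraries were above them and widely spread. The mean was 1.34-fold higher, a log2 change of 0.41 ± 0.11 (95% interval 0.15 to 0.66, adjusted p = 0.0324). The call was lost without any 1 library other than mutant replicate 3 (0.0714 to 0.0891). Levels of RNA do not measure autophagic flux, which was not assayed.

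Replicate 3 was often the lowest library of its genotype. Wild-type replicate 3 was the lowest of the 3 for 24 of the 43 genes (55.8%), beside 36.1% of all tested genes, and mutant replicate 3 for 27 (62.8%), beside 37.5%. The part of these libraries in the results was not tested beyond the leave-one-out values given with each gene.

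**Figure D3:**
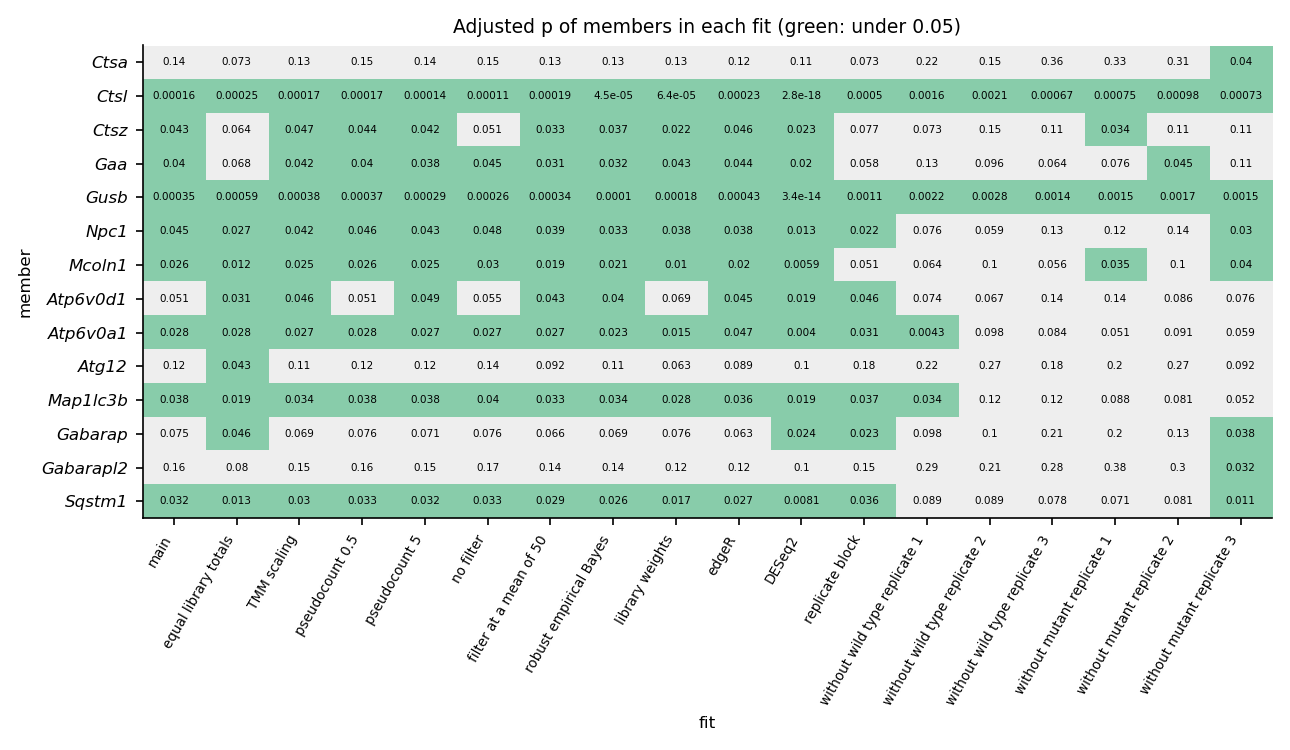
Adjusted p of 14 of the 43 genes in the fit reported and in 17 alternatives, with columns for the fits and green cells for an adjusted p under 0.05. The rows of Ctsl and Gusb are green throughout, and each other row is grey in some of the columns that leave out 1 library.

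Levels were compared between genes per kilobase of merged exons, as means over the 6 libraries. Psap was the highest at 5910.2 normalised reads per kilobase, followed by Ctsd at 4352, Sqstm1 at 4127, Lamp1 at 3112 and Gabarap at 3058. Among the ATG8 genes, Gabarap was followed by Map1lc3b at 1976, Gabarapl2 at 1318, Map1lc3a at 845 and Gabarapl1 at 705. The lowest 4 of the 43 were Atp6v0a1, Wipi1, Tfeb and Mitf. Of the 42 pairs of neighbours in this order, 36 overlapped over the 6 libraries, and gaps followed Sqstm1, Atp6v1h, Atg16l1, Atg9a, Tfe3 and Wipi1.

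**Figure D4:**
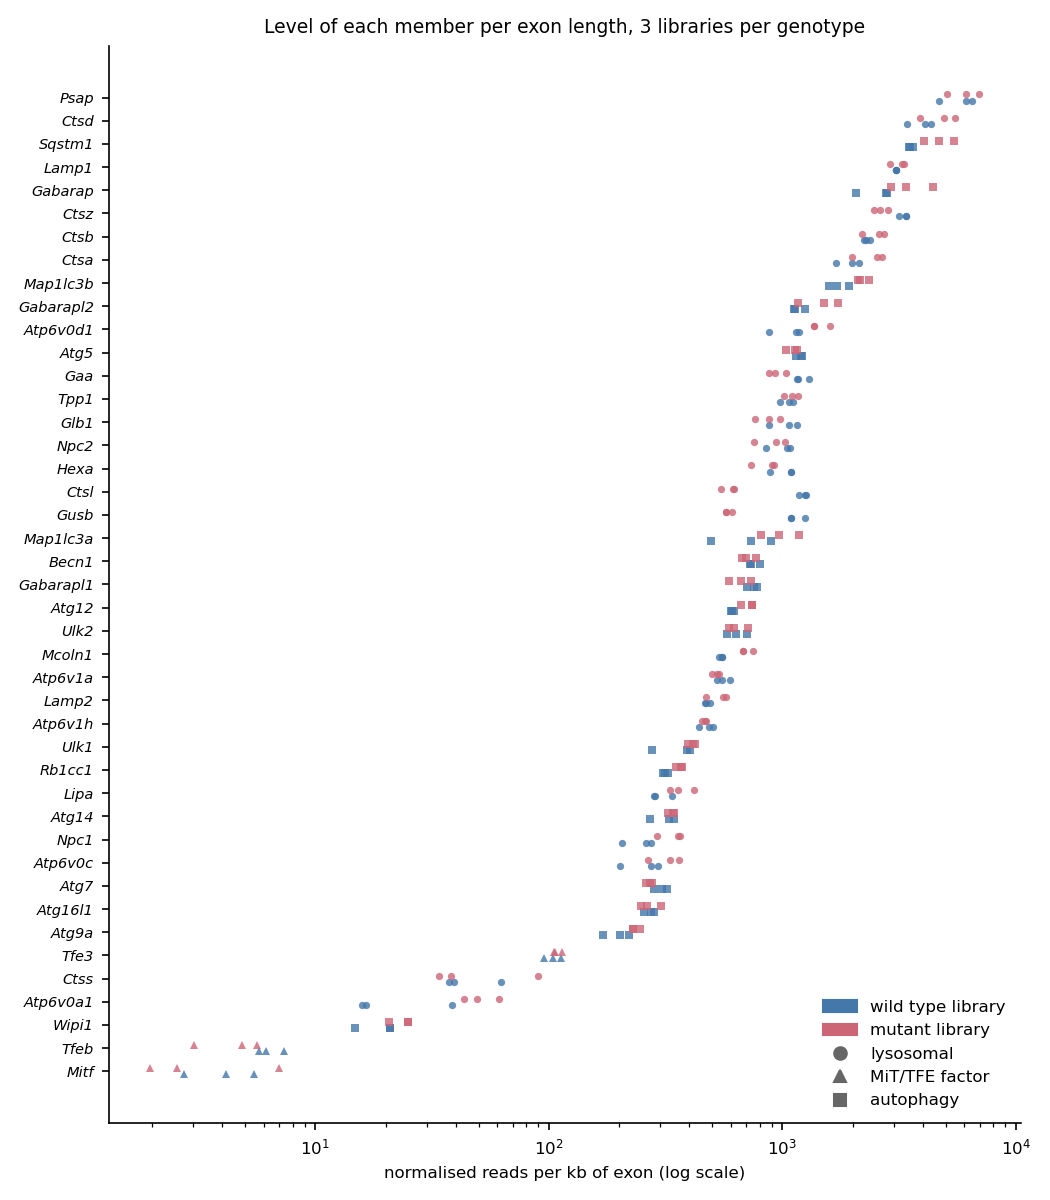
Normalised reads per kilobase of exon for each of the 43 genes on a log axis, ordered by their mean, with colour for genotype and shape for lysosomal, MiT/TFE and autophagy genes. Most neighbours overlap; Psap, Ctsd and Sqstm1 lead and Tfeb and Mitf are the lowest.

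Further genes of the pathways were listed by function and chosen with earlier results of these data known. Pooled, the lysosomal and V-ATPase genes and the autophagy genes among them passed in smaller shares than the 18.8% of all tested genes. Of 65 other lysosomal and V-ATPase genes, 5 rose and 3 fell (12.3%), and of 40 other autophagy genes, 3 rose and 2 fell (12.5%). The list of 15 other V-ATPase genes had 0 calls by limma, with 4 unadjusted p-values under 0.05 and 1 call each by edgeR and DESeq2.

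Of 35 other hydrolases and lumenal proteins, 4 rose and 2 fell (17.1%, beside 18.8% of all tested genes). Acp5, tartrate-resistant acid phosphatase, had 903, 1198 and 942 reads in wild-type libraries and 2195, 1706 and 1914 in mutant libraries, with a wide gap between them. Its log2 change was 0.94 ± 0.15 (adjusted p = 0.00242), and it passed in all 17 alternatives. Arsa, arylsulfatase A, rose by 0.59 ± 0.15 (adjusted p = 0.0255), a call lost without wild-type replicate 2 (0.0937), wild-type replicate 3 (0.0698) or mutant replicate 2 (0.0952). Sgsh, which removes sulfate from heparan sulfate, rose by 0.56 ± 0.17 (adjusted p = 0.0396), a call lost without any 1 library other than mutant replicate 1 (0.0824 to 0.137).

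Ctsf, a cysteine cathepsin, had 77.4, 81.2 and 84.5 normalised reads in wild-type libraries and 0, 0.905 and 4.41 in mutant libraries. In recovered reads this was 253 against 5, a 48.1-fold ratio scaled by the size factors, with an exact 95% interval of 20.3 to 149 that covers counting error only. Its adjusted p was 0.000796, and it passed in all 16 alternatives that gave a value. Ifi30, a thiol reductase of antigen processing, fell by 0.71 ± 0.22 on the log2 scale (adjusted p = 0.045), and passed in 7 of 17 alternatives. It was lost without any 1 library (0.0548 to 0.135), with equal library totals (0.0593), with no filter (0.0524), by edgeR (0.0518) and with a replicate block (0.0728).

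Of 15 membrane and sorting genes, Slc38a9, an arginine sensor of the lysosomal membrane, rose by 0.41 ± 0.10 on the log2 scale (adjusted p = 0.0214). Gnptab, a subunit of the enzyme that starts the mannose 6-phosphate tag of hydrolases, fell by 0.61 ± 0.15 (adjusted p = 0.0218). The Slc38a9 call was lost without wild-type replicate 2 (0.0971), wild-type replicate 3 (0.0598) or mutant replicate 2 (0.0758). The Gnptab call was lost without wild-type replicate 2 (0.0509), wild-type replicate 3 (0.0676) or mutant replicate 1 (0.0613).

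Of 12 genes that control the MiT/TFE factors at the lysosome, 3 fell and 1 rose (33.3%, beside 18.8% of all tested genes). Rragd, a Rag GTPase, had 211, 264 and 242 reads in wild-type libraries and 65.4, 67.9 and 103 in mutant libraries. The genotypes were far apart, at a log2 change of -1.61 ± 0.25 (adjusted p = 0.00208), in all 17 alternatives. Rragb, another Rag GTPase, fell by 0.67 ± 0.18 (adjusted p = 0.0306), and Flcn, the activator of RagC and RagD, fell by 0.50 ± 0.14 (adjusted p = 0.0338). Lamtor4, of the Ragulator scaffold, rose by 0.51 ± 0.16 (adjusted p = 0.0441). Calls were lost in leave-one-out fits: Rragb without wild-type replicate 2 or 3 or mutant replicate 2 or 3 (0.0642 to 0.1), Flcn without wild-type replicate 1 or 2 or mutant replicate 3 (0.0943 to 0.124), and Lamtor4 without any 1 library other than mutant replicate 3 (0.0588 to 0.131).

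Of 29 other genes of the autophagy machinery, 1 rose and 2 fell (10.3%, beside 18.8% of all tested genes). Tecpr1, which helps autophagosomes fuse with lysosomes, had 4265, 3929 and 3435 reads in wild-type libraries and 6244, 6130 and 6107 in mutant libraries. The 3 mutant libraries were nearly equal and far above the wild type, at a log2 change of 0.67 ± 0.11 (adjusted p = 0.00222), in all 17 alternatives. Rubcn, Rubicon, an inhibitor of autophagosome maturation, fell by 0.54 ± 0.13 on the log2 scale (adjusted p = 0.016), a call lost without wild-type replicate 2 (0.0598). Atg9b, the paralogue of Atg9a, fell by 0.78 ± 0.20 (adjusted p = 0.0219), a call lost without any 1 wild-type library or mutant replicate 2 (0.0559 to 0.0667).

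Of 11 other receptors, 2 rose (18.2%, beside 18.8% of all tested genes called in either direction). Retreg1, which marks endoplasmic reticulum for autophagy, had 608, 370 and 425 reads in wild-type libraries and 865, 898 and 757 in mutant libraries, apart between genotypes. Its log2 change was 0.87 ± 0.19 (adjusted p = 0.0119), and its call was lost without wild-type replicate 2 (0.0504). Calcoco1, a relative of the receptor NDP52, rose by 0.61 ± 0.17 (adjusted p = 0.0294), a call lost without any 1 library other than wild-type replicate 1 (0.052 to 0.075), with a change of 0.40 without wild-type replicate 3.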

How the data were processed

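Total RNA of 6 DN3 thymocyte libraries was made into amplified cDNA by SMART-Seq v4 and into libraries by Nextera XT, per the labels' protocols. These kits do not record strand. STAR 2.5.3, featureCounts, DESeq2 1.20.0 and the builds mm10 and GRCm38 were used, per the submitters' processing notes. The annotation release is not given in the sources used here, nor are counting options. The deposited values are a signal that the authors made from read counts by dividing each library by a size factor. This was settled from the values: whole reads were recovered for 100% of 126810 values within 0.1 reads, and each listed gene had at least 20 reads. Symbols and positions are from GENCODE M21 on GRCm38, and 21100 of 21135 genes matched.

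The test was limma 3.58.1 (R 4.3.3) with lmFit and trended eBayes, fitted to log2(value + 1) by genotype. It covered the 17815 genes whose mean was 10 or more and used two-sided p-values, adjusted by Benjamini-Hochberg and called at 0.05. The log2(value + 1) scale understates the change of rare transcripts. Replicates were grouped by the genotype in the labels. The 17 alternatives were equal library totals, TMM scaling, pseudocounts of 0.5 and 5, no filter, a minimum mean of 50, robust moderation, library weights, edgeR 4.0.16 and DESeq2 1.42.0 on the recovered reads, a replicate block and leaving out each library. Values in every library are given for each gene that passed and for the gene with the largest change in a class with none. From each further list, the 3 passing genes with the smallest p in each direction were named. The members were set by symbol, and they and the lists were chosen with earlier results of these data known. One result that the marker lists would take is not reported here.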

Additional observations from a re-analysis of the deposited data

How the results depend on the processing

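The limits are 3 libraries per genotype and, for genes of few reads such as Tfeb, Mitf, Ctss and Wipi1, wide intervals. The 9 genes that passed gave 153 results in the alternatives: 113 kept the call, 40 lost it and 0 changed direction. The other 34 gave 576, of which 15 passed and 16 changed sign. With equal library totals, 2 lysosomal genes were lower rather than 4, and 4 autophagy genes were higher rather than 2. Leaving out 1 library gave 0 to 3 lysosomal genes higher, 2 to 3 lower, 0 to 3 autophagy genes higher and 0 lower. Over all genes, 1905 to 2788 were then called rather than 3352, the lowest without wild-type replicate 2. The cause was not tested beyond fewer samples being fitted. Equal totals moved the median of all genes by 0.06 on the log2 scale.

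Libraries with the same replicate number did not deviate together over all tested genes (correlations -0.02, -0.07 and -0.01). These correlations show no pairing by number, but 3 libraries per genotype are too few to settle it. With the replicate block, 3066 genes were called and 2 lysosomal genes were lower rather than 4. Gaa (0.0578), Ctsz (0.0773) and Mcoln1 (0.051) missed the threshold with the block, while Atp6v0d1 (0.0463) and Gabarap (0.0226) passed.

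The sign changes were in 8 genes that did not pass. With library weights, Ctss was at -0.031, Mitf at 0.063 and Atg16l1 at -0.015, and with equal totals Atp6v1h was at 0.021. Leaving out 1 library gave log2 changes of -0.32 to 0.37 for Ctss, -0.074 to 0.19 for Psap, -0.0044 to 0.099 for Lamp1 and -0.093 to 0.0027 for Atp6v1h. It gave -0.0057 to 0.12 for Tfe3, -0.78 to 0.096 for Mitf, -0.068 to 0.086 for Ulk2 and -0.077 to 0.063 for Atg16l1. For the motif search, the 12 genes with CACGTG became 5 with TCACGTGA and 0 with the 10-base palindrome.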
